A study of Mus musculus with 8 samples.

Results

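The enzymes of fatty acid synthesis, elongation and desaturation were followed through 10 genes (Acly, Acaca, Fasn, Elovl1, Elovl5, Elovl6, Elovl7, Scd1, Scd2 and Fads1) in BMiFLT3 (15-3) cells. They were chosen by symbol as enzymes of this pathway, with earlier results of these data known. All 10 were found among the 38918 gene rows of the deposited table. The cells are pro-B cells of a murine acute lymphoblastic leukaemia of B-cell precursors (BCP-ALL). They were infected with a retrovirus for Klf2, a zinc-finger transcription factor, or with one for blue fluorescent protein (BFP) as the control. Column headers of both groups name BFP, and whether the Klf2 construct also carries it is not given in the sources used here. Poly(A) RNA was sequenced in 4 lanes per group, and the design asks which genes differ when Klf2 is overexpressed. The 4 lanes of a group are runs of 1 library and were summed, so n = 1 per group. There is no replicate check of any difference and therefore no test. Intervals are exact 95% intervals and cover counting error only. In bulk RNA, fewer cells of a type and less RNA per cell cannot be told apart.

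In the cytosol, Acly makes acetyl-CoA from citrate, Acaca turns it into malonyl-CoA, and Fasn builds palmitate from both. Elongases of the ELOVL family then add carbons at the endoplasmic reticulum, each with its own range of substrates, and desaturases put in double bonds. SREBP transcription factors control many of these genes in liver and other tissues, and dividing cells use the products for membranes.

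The Klf2 library held 30835450 exon reads and the BFP library 30133978. Klf2 itself was at 113 CPM in the Klf2 library and at 10.1 CPM in BFP, a ratio of 11.1 (9.93 to 12.6). Here CPM gives the exon reads of a gene relative to the library total, scaled with TMM. Klf2 reads across exon-exon junctions numbered 694 in the Klf2 library and 23 in BFP, a ratio of 31.4 (20.8 to 49.9). Its reads outside exons went the other way, with 17 in the Klf2 library and 35 in BFP, a ratio of 0.505 (0.266 to 0.927). The parts of construct and endogenous RNA in these reads were not tested. Of 12 markers of pro-B and early B cells used here, 9 reached 1 CPM in either library, among them Pax5 and Vpreb1. Rag1, Rag2 and Dntt, which act in V(D)J recombination, had between 1 and 9 reads per library. Of 7 adipocyte and 5 hepatocyte markers none reached 1 CPM, and the adipocyte markers summed to 0.0669 CPM in the Klf2 library and 0.0322 CPM in BFP. Macrophage and neutrophil markers summed to 5.52 CPM in the Klf2 library and 8.46 CPM in BFP, and T-cell markers to 7.43 CPM in the Klf2 library and 4.37 CPM in BFP, mostly Trac. Their part in the results below was not tested.

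One of the 10 genes, the elongase Elovl6, was at least 2-fold higher in the Klf2 library, and none was at least 2-fold lower. The rule asks for a 2-fold ratio and an interval that excludes 1. Among the 10850 genes that reached 1 CPM in 1 library or both, 2.45% passed it on the higher side and 5.67% on the lower side. At a limit of 1.5-fold, Elovl6 was again the only one of the 10 (10.2% of all genes were higher and 13.9% lower). The median log2 ratio of the 10 genes was 0.20, against -0.01 over all genes tested. All but Elovl7 lie in the top quintile of genes by mean CPM, in which the median log2 ratio was 0.17. The interval of the ratio lay above 1 for 8 of the 10 genes and below 1 for Elovl5 alone, though the ratios of Elovl1, Elovl5, Scd1, Scd2 and Fads1 crossed 1 under other scalings. The share with an interval above 1 was 37.1% over all genes and 61.5% in the top quintile. The share with one below 1 was 37.3% over all genes and 29.0% in the top quintile.

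**Figure D1:**
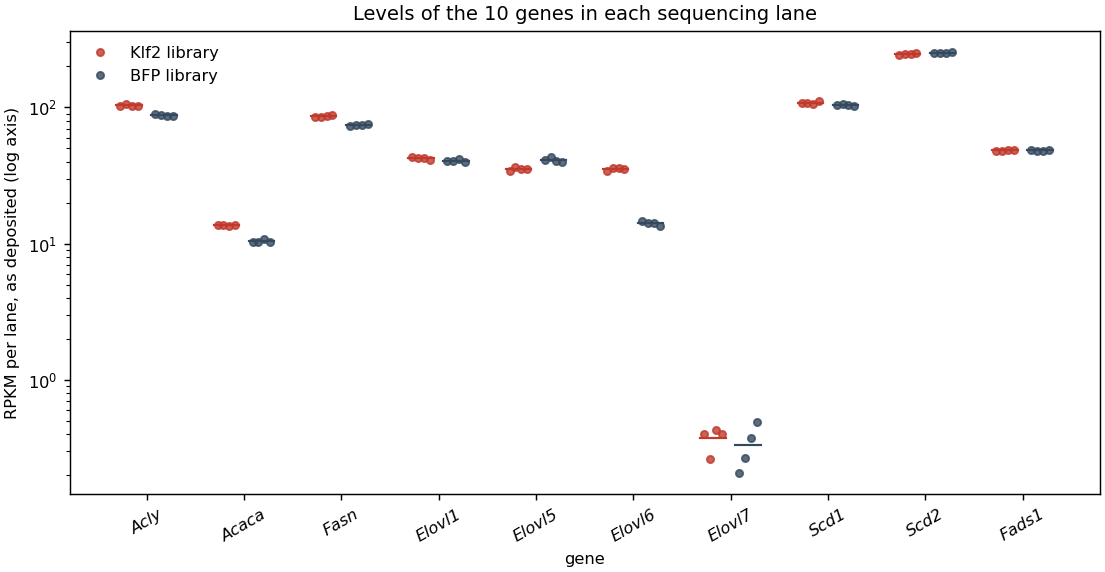
Deposited RPKM of the 10 genes on a log axis, with 1 point per sequencing lane (4 per library), the Klf2 library left of BFP for each gene, and a bar at the mean of the lanes. The Elovl6 lanes lie between 34.4 and 36.1 RPKM in the Klf2 library and between 13.5 and 14.6 RPKM in BFP, while most other genes differ little.

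RefSeq promoter sequences were at hand for 7 of the 10 genes (8 promoters), from 250 bases before to 50 after the start in the build GRCm38.p6, the assembly also called mm10. Scd1, Scd2 and Fads1 had no entry. The part before the start is shown for Elovl6, the gene past the 2-fold rule, for Fasn, the synthase that feeds it, and for Elovl5, the elongase on the other side of 1. Capitals mark CACCC, the core that KLF factors bind, and CCAAT, the box bound by NF-Y, on either strand, so that a match on the other strand reads GGGTG or ATTGG. The Elovl6 stretch is chr3:129532136-129532385 (plus strand), that of Fasn chr11:120824548-120824797 (minus strand) and that of Elovl5 chr9:77917115-77917364 (plus strand), each read 5′ to 3′.

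Elovl6: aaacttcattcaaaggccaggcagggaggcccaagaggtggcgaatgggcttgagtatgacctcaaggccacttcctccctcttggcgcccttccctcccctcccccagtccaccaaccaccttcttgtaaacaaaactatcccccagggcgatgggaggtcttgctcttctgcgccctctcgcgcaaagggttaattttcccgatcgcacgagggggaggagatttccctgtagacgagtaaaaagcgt

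Fasn: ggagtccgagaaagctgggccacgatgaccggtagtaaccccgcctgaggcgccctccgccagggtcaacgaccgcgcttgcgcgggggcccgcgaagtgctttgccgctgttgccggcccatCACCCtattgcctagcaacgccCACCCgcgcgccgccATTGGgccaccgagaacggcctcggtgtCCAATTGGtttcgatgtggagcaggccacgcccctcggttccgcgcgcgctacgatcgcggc

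Elovl5: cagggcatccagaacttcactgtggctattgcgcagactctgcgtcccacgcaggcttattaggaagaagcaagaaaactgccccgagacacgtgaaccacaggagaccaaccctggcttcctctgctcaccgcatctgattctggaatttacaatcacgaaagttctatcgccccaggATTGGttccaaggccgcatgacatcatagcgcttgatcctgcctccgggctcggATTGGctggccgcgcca

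No match to CACCC was found in the Elovl6, Elovl5, Acaca and Acly windows. Fasn held 2, at 127 and 105 bases before the start, Elovl7 held 5 and each of the Elovl1 promoters 3. Of 32851 RefSeq promoters of the same length, 57.5% hold CACCC. The longer form CCACACCC, which contains the core, was found only in the second Elovl1 promoter (3.56% of all promoters). CCAAT was found 3 times for Fasn, of which one pair overlaps, 2 times for Elovl5, once in the first Elovl1 promoter and once for Acly after the start, against 37.4% of all promoters. The sterol regulatory element TCACNCCAC was in none of the 8 windows (1.24% of all promoters), and the E-box CACGTG was found once, for Elovl5 (7.15%). The RefSeq start of Acaca lies inside the gene span of the deposited table, which begins at 84129672 on chromosome 11. The Acaca bases before that start are 84195188 to 84195437. The lack of matches for Acaca therefore does not describe the beginning of the span, which was not searched. The RefSeq start of Fasn lies upstream of its span in the table.

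Elovl6 lengthens saturated and monounsaturated fatty acids, mainly palmitate to stearate. It spans 129532386 to 129638495 of chromosome 3 (mm10), and the table gives it 5 exons of 5951 bases in all. Its exon reads in lanes 1 to 4 numbered 1863, 1944, 1944 and 1932 in the Klf2 library, against 768, 749, 745 and 720 in BFP. In RPKM, which also divides by exon length, these were 34.4, 36.0, 36.1 and 35.6 in the Klf2 library and 14.6, 14.2, 14.1 and 13.5 in BFP. Every Klf2 lane was above every BFP lane, as for 26.5% of all genes tested. Lanes of a library repeat the same RNA and are no replicates. Summed over lanes, the level was 257 CPM in the Klf2 library and 95.9 CPM in BFP, a ratio of 2.68 (2.57 to 2.80). This ratio ranked at 107 of 10850 genes. Within the 2170 genes of its expression quintile, 99.8% had a lower ratio, and 1.47% of that quintile were at least 2-fold higher. In the authors' deposited table the fold of Elovl6 is 2.52.

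Other columns of the table describe the Elovl6 reads further. Median coverage and junction reads come from the same exon reads as the ratio and are given as a description. Median coverage was 13 to 14 reads in the Klf2 lanes and 5 to 6 in the BFP lanes. Reads across exon-exon junctions numbered 138 in the Klf2 library and 55 in BFP, a ratio of 2.61 (1.90 to 3.64). Reads of the gene outside its exons, which the ratio did not use and which poly(A) libraries take up at a low level from introns, numbered 2434 in the Klf2 library and 698 in BFP, a ratio of 3.63 (3.33 to 3.95). On such reads, 2.49% of the 8383 genes with 100 or more of them passed the 2-fold rule on the higher side and 3.91% on the lower side. Reads outside exons made up 24.1% (23.2 to 24.9) of Elovl6 gene reads in the Klf2 library and 19.0% (17.7 to 20.3) in BFP, beside 15.1% and 15.2% over the whole Klf2 and BFP libraries. Of the Elovl6 exon reads, 96.0% in the Klf2 library and 95.5% in BFP were uniquely placed. GENCODE lists the antisense gene Gm35986 and, on the same strand, the transcript Gm43072 within its span. Neither has values here, their part in the reads outside exons was not tested, and whether strand was used in counting is not given in the sources used here.

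**Figure D2:**
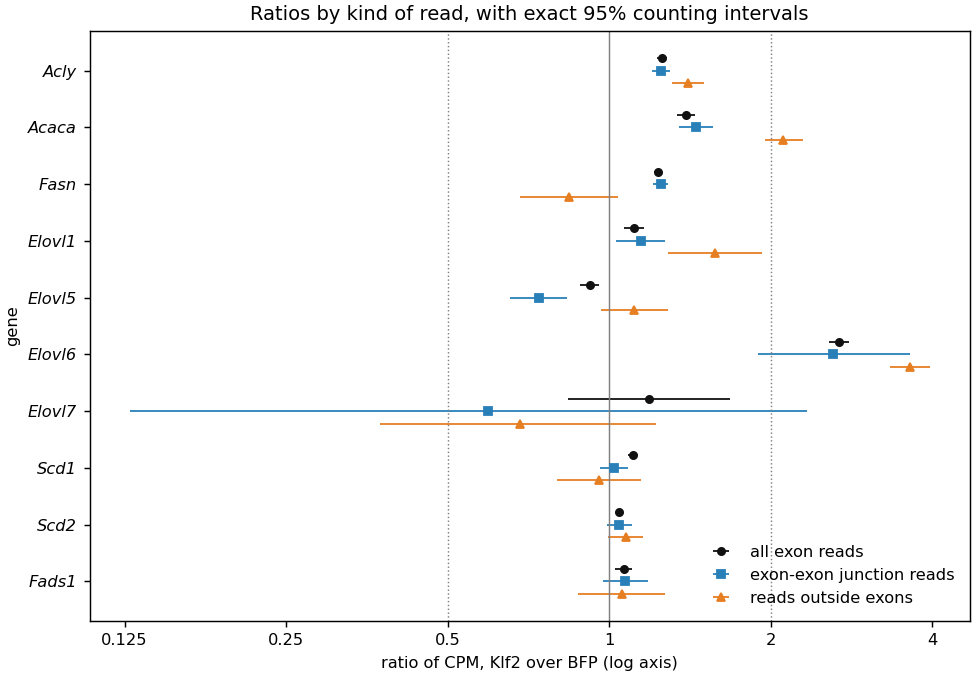
Ratio of CPM, Klf2 over BFP, on a log axis for all exon reads, exon-exon junction reads and reads outside exons of each gene. Bars are exact 95% intervals of counts and dotted lines mark 2-fold. Elovl6 lies above 2 on exon reads and on reads outside exons, and Acaca is at 2.11 on reads outside exons and at 1.39 on exon reads.

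The other elongases did not share this difference. Elovl5, which elongates polyunsaturated fatty acids (chromosome 9, 77917364 to 77984519), was the only one of the 10 genes with an interval below 1. Its RPKM in lanes 1 to 4 was 34.3, 36.3, 35.4 and 35.3 in the Klf2 library, against 40.8, 43.1, 40.1 and 39.4 in BFP. All Klf2 lanes were below all BFP lanes, as for 37.9% of genes tested. The ratio of CPM was 0.920 (0.883 to 0.957), and it was 1.06 when the libraries were scaled on the bottom quintile of genes. Junction reads of Elovl5 numbered 457 in the Klf2 library and 644 in BFP, a ratio of 0.738 (0.654 to 0.834), while reads outside exons numbered 401 in the Klf2 library and 375 in BFP, with a ratio of 1.11 (0.964 to 1.28).

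Elovl1, which elongates saturated and monounsaturated fatty acids to very long chains (chromosome 4, 118428093 to 118432953), had 42.9, 42.6, 42.4 and 41.4 RPKM in the Klf2 lanes and 40.3, 40.6, 41.5 and 39.6 RPKM in the BFP lanes. The lanes overlapped. Its CPM ratio was 1.11 (1.06 to 1.16), and 0.989 when scaled on the top quintile of genes. Its reads outside exons had a ratio of 1.57 (1.29 to 1.93), from 248 reads in the Klf2 library and 164 in BFP. The last 53 bases of Elovl1 overlap those of Cdc20, a mitotic activator on the other strand, which was itself at 117 CPM in the Klf2 library and 56.8 CPM in BFP. The part of Cdc20 reads in the Elovl1 values was not tested, and the shared bases are 1.94% of the Elovl1 exon bases in GENCODE.

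Elovl7, another elongase of long chains (chromosome 13, 108214404 to 108287105), was lowest. It had 74 reads (0.375 RPKM) in the Klf2 library and 65 reads (0.336 RPKM) in BFP, with a ratio of 1.18 (0.837 to 1.68). Lane values were 0.405, 0.264, 0.427 and 0.404 RPKM in the Klf2 library and 0.208, 0.269, 0.374 and 0.493 RPKM in BFP, which overlapped. A difference was not detectable at this depth. Elovl2 had 0 reads in both libraries (3 reads, the limit that a count of 0 allows, are 0.100 CPM in Klf2 and 0.0965 CPM in BFP). Elovl3 had 4 reads in each, and Elovl4 had 0 reads in the Klf2 library and 7 in BFP.

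Per exon length, Elovl1, Elovl5 and Elovl6 together held nearly all elongase RNA. The summed RPKM of the 7 elongase genes was 114 in the Klf2 library and 95.9 in BFP. Without Elovl6 the sum was 78.1 RPKM in the Klf2 library and 81.8 RPKM in BFP, a ratio of 0.954. With TMM scaling and exon length, a form added after the data were seen, that ratio was 1.01, so its direction rests on the scaling. Elovl6 made up 31.3% of the sum in the Klf2 library and 14.7% in BFP. For Elovl1 the share was 37.2% in the Klf2 library and 42.2% in BFP, and for Elovl5 it was 31.1% in the Klf2 library and 42.6% in BFP. In the Klf2 library Elovl6 stood level with Elovl5 in RPKM (35.5 and 35.3), and in BFP it was well below it (14.1 and 40.9).

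**Figure D3:**
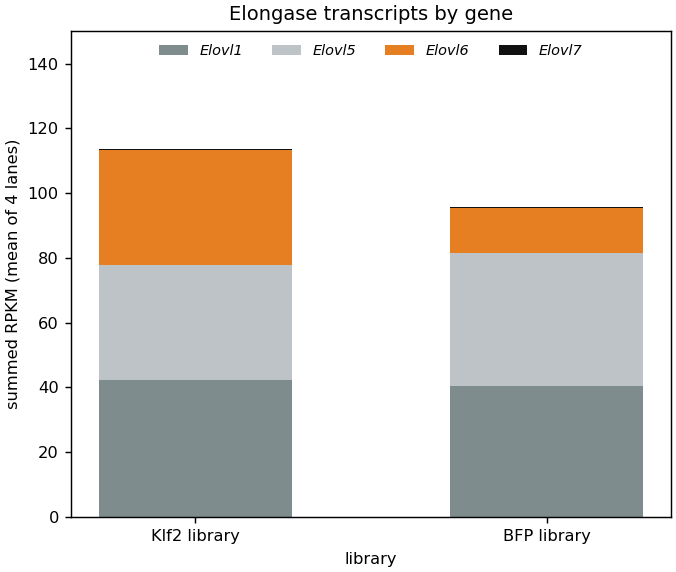
Summed RPKM (mean of 4 lanes) of the elongase genes in the Klf2 and the BFP library, stacked by gene. The Elovl6 part is 35.5 RPKM in the Klf2 library and 14.1 RPKM in BFP, and Elovl7 is too low to see.

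The 3 cytosolic synthesis genes were each higher in the Klf2 library by less than 1.5-fold. Acaca, the acetyl-CoA carboxylase whose product malonyl-CoA also blocks fatty acid import into mitochondria, lies on chromosome 11 (84129672 to 84401651) with 68 exons in the table. It had 13.8, 13.7, 13.4 and 13.7 RPKM in the Klf2 lanes and 10.3, 10.3, 10.8 and 10.3 RPKM in the BFP lanes. All Klf2 lanes were above all BFP lanes, as for 26.5% of genes tested. The CPM was 202 in the Klf2 library and 145 in BFP, a ratio of 1.39 (1.34 to 1.45), higher than 79.0% of the genes in its expression quintile. Reads outside its exons had a ratio of 2.11 (1.95 to 2.29), from 1792 in the Klf2 library and 883 in BFP, past the 2-fold rule that exon reads did not reach. On such reads, 2.49% of the 8383 genes passed it on the higher side. GENCODE lists Gm37391 on the same strand and Gm11437 on the other strand within the Acaca span. Gm11437 had 2 reads in the Klf2 library and 0 in BFP, and Gm37391 has no values here. Their part in the reads outside exons was not tested. Reads outside exons made up 22.9% (21.9 to 23.8) of Acaca gene reads in the Klf2 library and 16.3% (15.4 to 17.4) in BFP. The log2 ratio outside exons exceeded that on exons by 0.60, and 92.7% of the 8383 genes had a smaller excess. For Elovl1 the excess was 0.50, larger than in 89.4% of genes, and for Elovl6 it was 0.44, larger than in 86.4%. Fasn lay on the other side at -0.55, with 9.76% of genes below it.

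Acly, the ATP-citrate lyase (chromosome 11, 100476353 to 100528000), had 102, 105, 103 and 103 RPKM in the Klf2 lanes and 89.3, 88.7, 86.3 and 86.1 RPKM in the BFP lanes. The lanes did not overlap, and 26.5% of genes tested had all Klf2 lanes higher. The CPM ratio of Acly was 1.25 (1.23 to 1.28), and its reads outside exons numbered 1976 in the Klf2 library and 1466 in BFP, a ratio of 1.40. Fasn, the fatty acid synthase (chromosome 11, 120805940 to 120824178), had 85.4, 85.2, 85.8 and 87.7 RPKM in the Klf2 lanes and 73.1, 74.3, 74.6 and 75.1 RPKM in the BFP lanes, again with no overlap. Its CPM ratio was 1.23 (1.21 to 1.25). Only 165 reads in the Klf2 library and 204 in BFP lay outside Fasn exons, and their ratio of 0.842 (0.681 to 1.04) was on the other side of 1. In their expression quintile, 66.0% of genes had a lower ratio than Acly and 63.5% a lower one than Fasn. Acacb, the carboxylase of the mitochondrial surface, had 13 reads in each library.

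The 3 desaturases among the 10 genes had CPM ratios between 1.04 and 1.11. Scd1 and Scd2, stearoyl-CoA desaturases that make monounsaturated fatty acids, lie beside each other on chromosome 19 (44394451 to 44407709 and 44293676 to 44306864). Scd2 had the highest RPKM of the 10 genes in both libraries, 242, 246, 245 and 249 in the Klf2 lanes and 249, 249, 250 and 254 in the BFP lanes. These RPKM lie lower in the Klf2 library, by little, while the TMM-scaled CPM was 1628 in the Klf2 library and 1561 in BFP, a ratio of 1.04 (1.03 to 1.06). The direction for Scd2 rests on the scaling. Scd1 had 108, 108, 106 and 112 RPKM in the Klf2 lanes and 104, 106, 104 and 103 RPKM in the BFP lanes. All Scd1 lanes of the Klf2 library were higher, as for 26.5% of genes tested. The CPM ratio of Scd1 was 1.11 (1.09 to 1.13), and it turned to 0.987 when scaled on the top quintile of genes. The level of Scd2 over that of Scd1, which needs no scaling between libraries, was 2.26 in the Klf2 library (2.23 to 2.31 across lanes) and 2.41 in BFP (2.36 to 2.46). Of the reads of each gene, 96.1% to 96.5% were uniquely placed in either library. Scd3 had 3 reads in each library and Scd4 had 32 reads in the Klf2 library and 51 in BFP.

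Fads1, the desaturase that makes arachidonic acid (chromosome 19, 10182888 to 10196870), had 48.1, 48.0, 48.3 and 49.0 RPKM in the Klf2 lanes and 48.4, 47.9, 48.0 and 49.0 RPKM in the BFP lanes, which overlapped. Its CPM ratio of 1.06 (1.03 to 1.10) was 0.999 with total exon reads as the scale. Fads2, which acts before it in the same route, stood at 45.5 RPKM in the Klf2 library and 47.5 RPKM in BFP. Its TMM-scaled CPM ratio was 1.02 (0.963 to 1.08), so its direction also rests on the scaling.

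In order of RPKM in the Klf2 library, the 10 genes ran Scd2, Scd1, Acly, Fasn, Fads1, Elovl1, Elovl6, Elovl5, Acaca and Elovl7, and the lanes of Elovl6 and Elovl5 overlapped. In BFP, Elovl5 (40.9) and Elovl1 (40.5) had overlapping lanes below those of Fads1, and Elovl6 followed both.

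**Figure D4:**
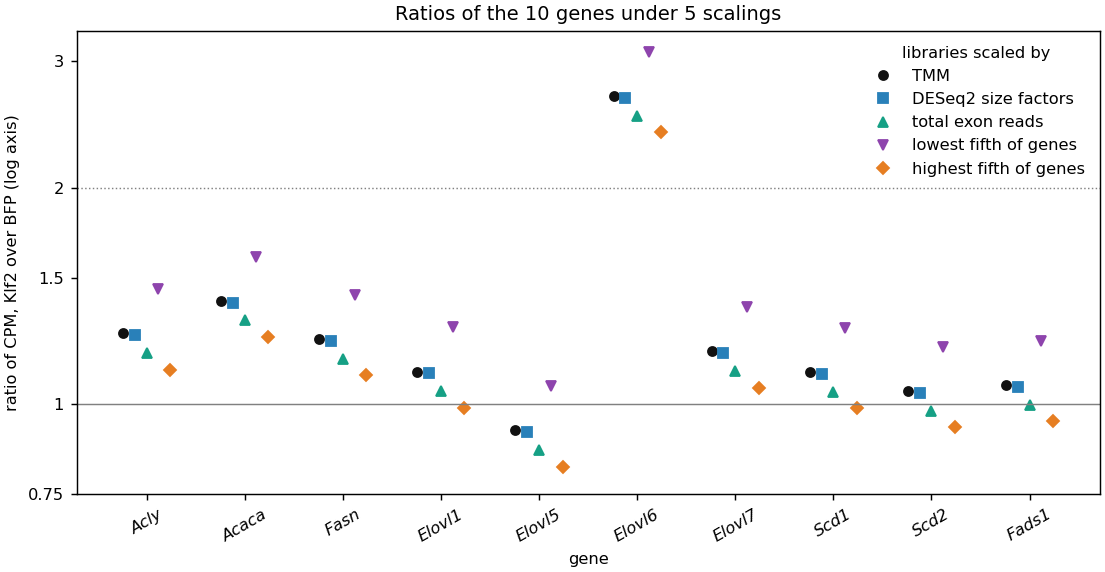
Ratio of CPM, Klf2 over BFP, on a log axis for the 10 genes when the libraries are scaled by TMM, DESeq2 size factors, total exon reads, or the median ratio of the bottom or top quintile of genes. Elovl6 stays above 2 under all 5 (2.39 to 3.09), Acaca, Acly, Fasn and Elovl7 stay above 1, and Elovl1, Elovl5, Scd1, Scd2 and Fads1 cross 1. The counting interval of Elovl7 under TMM includes 1 (0.837 to 1.68).

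Around these enzymes, 130 symbols of neighbouring lipid pathways fall in 10 lists, of which 94 genes were measured. None was at least 2-fold higher and 6 were at least 2-fold lower, beside 2.45% and 5.67% of all genes. At 1.5-fold, 5 were higher (Acsl4, Acsl5, Slc27a1, Dbi and Lpin2, named after their values were seen) and 14 lower, beside 10.2% and 13.9% of all genes.

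The partner enzymes of the elongation cycle showed small differences. Of 5 measured, none passed the 2-fold rule, and the median log2 ratio was 0.03 (-0.06 with total exon reads as the scale). The dehydratase gene Ptplad1 had 64.9 CPM in the Klf2 library and 46.3 CPM in BFP, a ratio of 1.40. Ptpla, another dehydratase gene, had 15.0 CPM in the Klf2 library and 12.5 CPM in BFP (33.2% of its reads uniquely placed), and the last reductase of the cycle, Tecr, had a ratio of 0.947. Among other elongases, desaturases and electron donors, 5 were measured with none past the rule and a median of -0.27. Under the other settings this median lay between -0.43 (scaled on the top quintile) and -0.02 (no floor). Cyb5b, a cytochrome b5, was at 514 CPM in the Klf2 library and 417 CPM in BFP, and Fads6 was at 6.93 CPM in the Klf2 library and 10.4 CPM in BFP. The list named for the supply of acetyl-CoA, malonyl-CoA and NADPH also takes in genes that remove malonyl-CoA or regulate its synthesis. Of its 10 measured genes none passed, with a median of -0.17 (0.03 when scaled on the bottom quintile). The malic enzyme gene Me2 was at 157 CPM in the Klf2 library and 118 CPM in BFP, and the acetyl-CoA synthetase genes Acss1 and Acss2 had ratios of 1.28 and 0.584. In mitochondrial fatty acid synthesis, with 7 measured and a median of 0.25 (0.053 without lane 2 and 0.083 when scaled on the top quintile), Mecr had a ratio of 1.41, Lias of 1.34 and Mcat of 0.642.

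Acyl-CoA synthetases and binding proteins, which activate and carry fatty acids, held genes on both sides. Of 9 measured, 7 had an interval above 1 (37.1% of all genes), and the other 2, Acsbg1 and Slc27a4, were at least 2-fold lower (5.67% of all genes). The list median was 0.47. Acsbg1 had 988 reads in the Klf2 library and 3971 in BFP, a ratio of 0.259 (0.241 to 0.278), and the fatty acid transport protein gene Slc27a4 was at 13.2 CPM in the Klf2 library and 29.7 CPM in BFP, a ratio of 0.443 (0.511 when scaled on the bottom quintile, short of 2-fold). Dbi, which encodes the acyl-CoA binding protein, was at 102 CPM in the Klf2 library and 62.1 CPM in BFP, a ratio of 1.65.

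Among 11 measured genes of SREBP, LXR and ChREBP control, 1 interval lay above 1 (37.1% of all genes) and 6 below (37.3% of all genes). Srebf1, which encodes the SREBP of fatty acid synthesis, was at 123 CPM in the Klf2 library and 112 CPM in BFP, a ratio of 1.09 (1.04 to 1.15), and Srebf2 had a ratio of 0.977 (0.951 to 1.003) (both named outside the rule, after their values were seen). Insig1, which retains the SREBP complex in the endoplasmic reticulum and is itself an SREBP target, had a ratio of 0.649, and Nr1h2, an LXR gene, of 0.718. In this list 1 gene, Rxra, was at least 2-fold lower (5.67% of all genes), with 10 reads in the Klf2 library and 37 in BFP. Without lane 4 it was under the floor of 1 CPM. None was at least 2-fold higher, and the list median was -0.19 (0.02 when scaled on the bottom quintile). For AMPK, the kinase that inhibits acetyl-CoA carboxylase, and its activating kinases, none of 8 passed, with Prkaa2 at 0.620, Prkag2 at 1.41 and Camkk2 at 0.765, and a median of -0.07 (0.16 when scaled on the bottom quintile).

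In glycerolipid synthesis, 3 of 17 measured were at least 2-fold lower (5.67% of all genes) and none higher (2.45%). There were 11 intervals below 1 (37.3% of all genes). The median was -0.31, and it lay between -0.47 and -0.10 under the other settings. Lpin1, a phosphatidate phosphatase, had 31 reads in the Klf2 library and 141 in BFP, a ratio of 0.229 (0.150 to 0.339). Agpat9, a glycerol-3-phosphate acyltransferase, was at 37.8 CPM in the Klf2 library and 88.9 CPM in BFP. Agpat2, an acyltransferase of the next step, was at 5.99 CPM in the Klf2 library and 13.5 CPM in BFP, a ratio of 0.442. Only 19.7% of its reads were uniquely placed, and it did not pass the 2-fold rule on those (0.620), when scaled on the bottom quintile (0.510) or without lane 4 (0.520). In ceramide synthesis none of 7 passed, 5 intervals lay below 1 (37.3% of all genes) and the median was -0.23, which was -0.028 when scaled on the bottom quintile and -0.098 on all gene reads, with Kdsr at 0.625, Degs1 at 0.716 and Cers4 at 1.28. For mitochondrial fatty acid oxidation none of 15 passed and the median was 0.08, or -0.01 with total exon reads as the scale, with the highest ratios of the named genes between 1.27 (Etfa) and 1.31 (Etfb), and Hadh at 1.30.

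**Figure D5:**
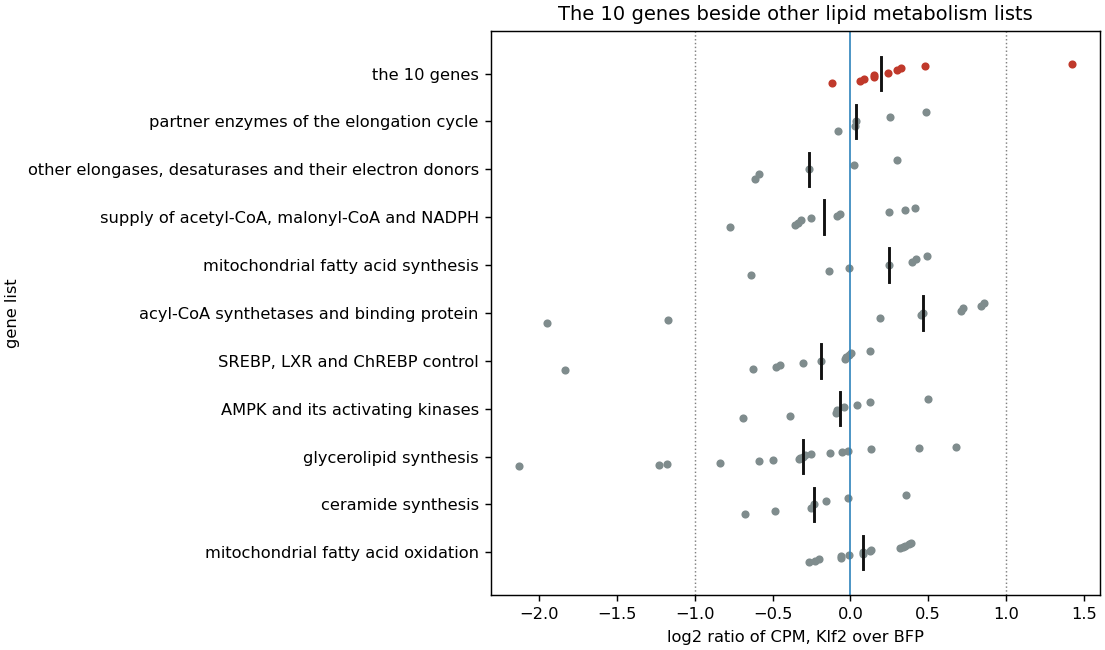
Log2 ratio of CPM, Klf2 over BFP, of each measured gene (points) in the 10 genes and in 10 lists of lipid metabolism, with a black bar at each list's median, a blue line at the median of all genes (-0.01) and dotted lines at 2-fold. Elovl6 is the only point beyond 2-fold on the higher side, and 6 points lie beyond it on the lower side.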

How the data were processed

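Reads came from an Illumina HiSeq instrument, and the labels name 2 library kits without saying which library used which, so kit and group cannot be told apart. The submitters' processing notes list CASAVA 1.8.2 and mm10. No source used here gives the aligner, counter, annotation or use of strand. Per the file headers, the authors' counts are exon, uniquely placed exon, gene and junction reads per lane, with a median coverage signal and RPKM. RPKM recomputed from exon reads, exon length and total gene reads of a lane differed by at most 0.0258. The authors' deposited fold is a signed score, the ratio of mean RPKM.

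Chi-square per degree of freedom between lanes was 1.27 (Klf2) and 1.29 (BFP) on all exon reads and 1.03 in both on uniquely placed reads, below a limit of 1.5, so lanes were summed. Lanes held 7682298 to 7741626 exon reads (Klf2) and 7506567 to 7588695 (BFP). CPM used TMM factors of edgeR 4.0.16 in R 4.3.3, and genes under 1 CPM in both libraries were left out. Ratio intervals are Clopper-Pearson intervals conditional on summed reads, without molecular identifiers. Alternatives were DESeq2 1.42.0 size factors, total exon reads, scaling on the bottom or top quintile of genes, uniquely placed reads, all gene reads, deposited RPKM, other floors (none, 10 CPM) and leaving out each lane. A promoter match was searched on both strands. Named list genes are those past the 2-fold rule and the 3 furthest from 1 on the log2(CPM + 1) scale. The members, lists and limits were chosen with earlier results of these data known. Of the 130 listed symbols, 120 are in the table (some are older names of the same gene). Protein sequences were not used here.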

Additional observations from a re-analysis of the deposited data

Results flagged for a closer look

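Of 20 sets of 4 lanes (10 genes in each library), 2 held a lane far from the other 3 in RPKM, where chance gives about 1 in 20. Lane 3 of BFP had 10.8 RPKM for Acaca, against 10.3 in the other BFP lanes, still below every Klf2 lane. Lane 2 of Klf2 had 0.264 RPKM for Elovl7, from 13 reads, against 0.404 to 0.427 in the other Klf2 lanes.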

How the results depend on the processing

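No paired analysis was possible because the lane numbers belong to 1 library per group and no result comes from a test. Under all 13 alternatives run, Elovl6 was the only one of the 10 genes at least 2-fold higher (2.39 to 3.09) and none was at least 2-fold lower. Scaling on the quintiles of genes moved the median log2 ratio of all genes to 0.20 (bottom) and -0.18 (top). The median log2 ratio of the 10 genes was 0.40 (bottom) and 0.031 (top) under those scalings, 0.11 with total exon reads and 0.063 on deposited RPKM, where Elovl7 was under the floor. Acaca also passed 1.5-fold, giving 2 genes, when scaled on the bottom quintile and on all gene reads. The Klf2 ratio was 12.8 when scaled on the bottom quintile. Of the lipid lists, genes at least 2-fold higher numbered 3 on that scaling (Acsl4, Prkag3, Slc27a1), 3 with no floor (Cds1, Me1, Prkag3), 2 on all gene reads (Cds1, Prkag3) and 1 on uniquely placed reads (Prkag3). They numbered 0 to 1 when a lane was left out, the 1 being Acsl4 without lane 1. Genes at least 2-fold lower numbered between 4 and 8. Of the 6, Agpat2 and Slc27a4 were lost on the bottom quintile scaling, Agpat2 also on uniquely placed reads, Agpat2 and Rxra without lane 4, and Lpin1 and Rxra with a floor of 10 CPM or on RPKM, where they were under the floor. Depth limits Elovl7 most.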
